A study of Mus musculus with 12 samples.

Results

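The platelet-derived growth factor (PDGF) system of the mouse consists of a pair of receptor genes, Pdgfra and Pdgfrb, and the ligand genes Pdgfa, Pdgfb, Pdgfc and Pdgfd. These 6 genes were taken by symbol from a table of 54351 genes, whatever their values, and their transcripts were followed in leukaemic and normal T-lineage cells. Polyadenylated RNA was sequenced from 12 samples of C57BL/6 mice, in 4 groups of 3. LN3 thymus and LN3 spleen are cells of T-ALL (acute lymphoblastic leukaemia of the T lineage) freed by mechanical dissociation from the thymus or the spleen of overtly sick mice with the genotype LN3 tg. WT thymocytes are unselected thymus cells of tumour-free wild-type mice, prepared in the same way, and WT CD8 cells are their spleen CD8 T cells after negative enrichment to a stated purity of 85 to 95%. LN3 mice are known as carriers of LMO2 and NUP98-HOXD13 transgenes. The labels give neither the promoter nor the cell type that drives the transgenes, nor the age of the mice, and no step that removed other cells from the LN3 suspensions or the WT thymocytes.

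In the GENCODE M21 annotation of GRCm38, Pdgfrb (ENSMUSG00000024620.11) lies on the plus strand at chr18:61045150-61085061 and overlaps no other gene. Pdgfra (ENSMUSG00000029231.15) lies at chr5:75152292-75198215 on the plus strand, with the antisense gene Gm42802 inside it. Among the ligands, Pdgfa (ENSMUSG00000025856.15) is at chr5:138976014-138997370 and Pdgfb (ENSMUSG00000000489.7) at chr15:79995874-80014977, both on the minus strand. Pdgfc (ENSMUSG00000028019.9) is at chr3:81036416-81214040 and Pdgfd (ENSMUSG00000032006.15) at chr9:6168584-6378850, both on the plus strand. The kit keeps the strand of the RNA, but whether counting used it is not given in the sources used here. Genes on the other strand were read by their summed counts per group of 3 libraries. For Pdgfd they were higher than the member in every group, and for Pdgfa as high or higher in LN3 thymus and LN3 spleen. In LN3 thymus, LN3 spleen, WT thymocytes and WT CD8 cells, 6330403L08Rik, opposite Pdgfa, had 18, 20, 6 and 25 counts. Pdgfa had 18, 12, 12 and 28 in the same order. Ddi1, opposite Pdgfd, had 20, 12, 9 and 96 against 2, 8, 1 and 10. Overlap was read from whole gene spans and not from exons, so whether these pairs share reads was not tested. The partners of the other members had fewer counts than the member: Gm41361, opposite Pdgfb, had 14 to 37, Gm16000, opposite Pdgfc, had at most 1, and Gm42802 had 0 in all groups.

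PDGF ligands are secreted dimers that bring receptor tyrosine kinases together at the cell surface. PDGF-AA binds dimers of the alpha chain, and PDGF-BB binds both chains. PDGF-CC and PDGF-DD are secreted with an inhibitory CUB domain that a protease must remove. The activated receptor recruits SRC kinases, phosphoinositide 3-kinase, phospholipase C gamma and the RAS to ERK cascade; the receptors are best known from fibroblasts, pericytes and smooth muscle, and PDGF-BB from platelets and endothelium.

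Promoter sequence was given for 4 of the 6 genes (RefSeq, GRCm38.p6). The windows below hold the 250 bases before an annotated start site, 5′ to 3′ on the strand of the gene. They are shown because 2 of these genes were higher in LN3 thymus than in WT thymocytes (Pdgfc and Pdgfra) and the other two were near the counting floor in every group (Pdgfa and Pdgfd). Capitals mark matches, on either strand, to TGGGAA (the core bound by RBPJ, the DNA-binding partner of Notch), GGGCGG (a GC box), CACGTG (an E-box), TGA and TCA with any 1 base between them (an AP-1 site) or TATAAA (the core promoter box that binds TBP).
Pdgfc, chr3:81036166-81036415, plus strand: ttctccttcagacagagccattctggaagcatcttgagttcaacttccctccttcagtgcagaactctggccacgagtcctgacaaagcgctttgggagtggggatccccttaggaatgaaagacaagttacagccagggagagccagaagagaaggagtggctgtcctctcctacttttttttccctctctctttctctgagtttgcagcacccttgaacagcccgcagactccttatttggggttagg
Pdgfra, chr5:75152001-75152250, plus strand: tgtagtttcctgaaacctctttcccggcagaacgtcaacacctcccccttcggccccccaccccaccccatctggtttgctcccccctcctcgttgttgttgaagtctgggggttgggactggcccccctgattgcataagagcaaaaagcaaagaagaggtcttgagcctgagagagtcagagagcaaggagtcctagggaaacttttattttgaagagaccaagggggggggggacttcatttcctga
Pdgfa, chr5:138994282-138994531, minus strand: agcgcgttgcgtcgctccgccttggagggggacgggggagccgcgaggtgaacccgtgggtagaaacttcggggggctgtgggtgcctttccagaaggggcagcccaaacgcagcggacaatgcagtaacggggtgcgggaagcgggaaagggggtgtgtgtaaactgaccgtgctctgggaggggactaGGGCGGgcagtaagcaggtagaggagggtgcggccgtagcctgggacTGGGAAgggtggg
Pdgfd, chr9:6168236-6168485, plus strand: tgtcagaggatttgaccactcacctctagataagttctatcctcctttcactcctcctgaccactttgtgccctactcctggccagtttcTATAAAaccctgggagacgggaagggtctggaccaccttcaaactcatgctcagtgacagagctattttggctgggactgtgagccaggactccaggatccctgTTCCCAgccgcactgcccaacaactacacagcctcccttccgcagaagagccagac
None of the 5 motifs was found in the Pdgfc and Pdgfra windows. The Pdgfa window shown, 1 of 2 given for this gene, held a GC box and an RBPJ core, whose first bases were at -60 and -13 from the start site. The other Pdgfa window (chr5:138994945-138995194) held 2 GC boxes and no match to the other motifs. The Pdgfd window held TATAAA at -160 and the RBPJ core, read on the other strand, at -56. Of 32851 promoter windows of this length, 21.6% held the RBPJ core, 32.7% the GC box, 6.02% the E-box, 6.75% the AP-1 site and 12.4% TATAAA. A match is a stretch of letters and was not tested as a binding site.

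Total counts per library ran from 12694571 to 42483898. The mitochondrial share of counts was 2.12, 2.41 and 2.82% in LN3 thymus libraries 1 to 3 and 1.697, 1.11 and 0.937% in WT thymocytes, with no overlap, and 9 of 13 mitochondrial genes were called higher in that comparison (1 higher and 1 lower of 13 in the spleen). All 8 T-lineage markers (among them Cd3e, Lck and Thy1) had counts in each group, and their summed level was 1835 to 7259 CPM per library (counts-per-million after TMM scaling). Cd4, Cd8a and Cd8b1 summed to 220 to 616 CPM in the 6 LN3 libraries, 2724 to 5416 in WT thymocytes and 1050 to 1696 in WT CD8 cells. Erythroid markers summed to 1613 to 5603 CPM in LN3 spleen and to 34.9 to 608 in WT CD8 cells, and to 7.43 to 141 in LN3 thymus and 13.7 to 3932 in WT thymocytes; 2 of 6 were called higher in the spleen and 1 of 6 lower in the thymus (Alas2, edgeR adjusted p 0.0401). Of the 6 genes, 4 passed the filter on low counts and were tested with edgeR among 20897 genes (Pdgfra, Pdgfrb, Pdgfb and Pdgfc). Pdgfa and Pdgfd did not pass and are given as counts. Unless another tool is named, adjusted p-values are from edgeR's quasi-likelihood test with Benjamini-Hochberg adjustment over all genes tested, and a gene was called when this p was below 0.05. Of all genes tested, 11.3% were called in LN3 thymus against WT thymocytes and 30.9% in LN3 spleen against WT CD8 cells. Each count of called genes or markers in these 2 comparisons, also those above, is to be read against these shares. The labels do not say that the libraries of a group come from separate animals, so these p-values measure the spread between samples, which may be technical.

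The first question was how the 2 receptors differ between leukaemic and normal cells of the thymus. Pdgfrb, which encodes the receptor chain for PDGF-BB and PDGF-DD, was the most abundant transcript of the system in LN3 cells. In LN3 thymus it had 472, 760 and 663 CPM in libraries 1, 2 and 3, and in WT thymocytes 5.74, 5.09 and 8.52. Every LN3 thymus library was far above every WT thymocyte library, with no overlap. The log2 difference was 6.62 ± 0.44 (SE), a 98.1-fold higher level, with an edgeR adjusted p of 5.00e-06. Only 90 of the 20897 genes tested had a larger log2 difference in this direction. Of all genes tested in this comparison, 11.3% were called (1266 higher and 1088 lower), and all 4 tested PDGF genes were called higher. Pdgfra, with 6 counts or fewer in every WT library, passed the filter on low counts only through LN3 libraries. Its place among the tested genes therefore depends on its level in LN3 cells. The mitochondrial share was also higher in this comparison, and its part in these values was not tested.

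The same question was put to the spleen, where the control is a different cell population. LN3 spleen libraries 1, 2 and 3 had 302, 489 and 690 CPM of Pdgfrb, and WT CD8 libraries had 1.53, 2.78 and 1.55. These groups did not overlap either. Pdgfrb rose by 7.97 ± 0.47 (SE) on the log2 scale, 251-fold, with an edgeR adjusted p of 7.28e-07. In this comparison 30.9% of all genes were called (3740 higher and 2713 lower), and Pdgfrb was the 1 PDGF gene called among the 4 tested. Since the samples are bulk cell suspensions, fewer cells of a type and less RNA per cell cannot be told apart.

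**Figure D1:**
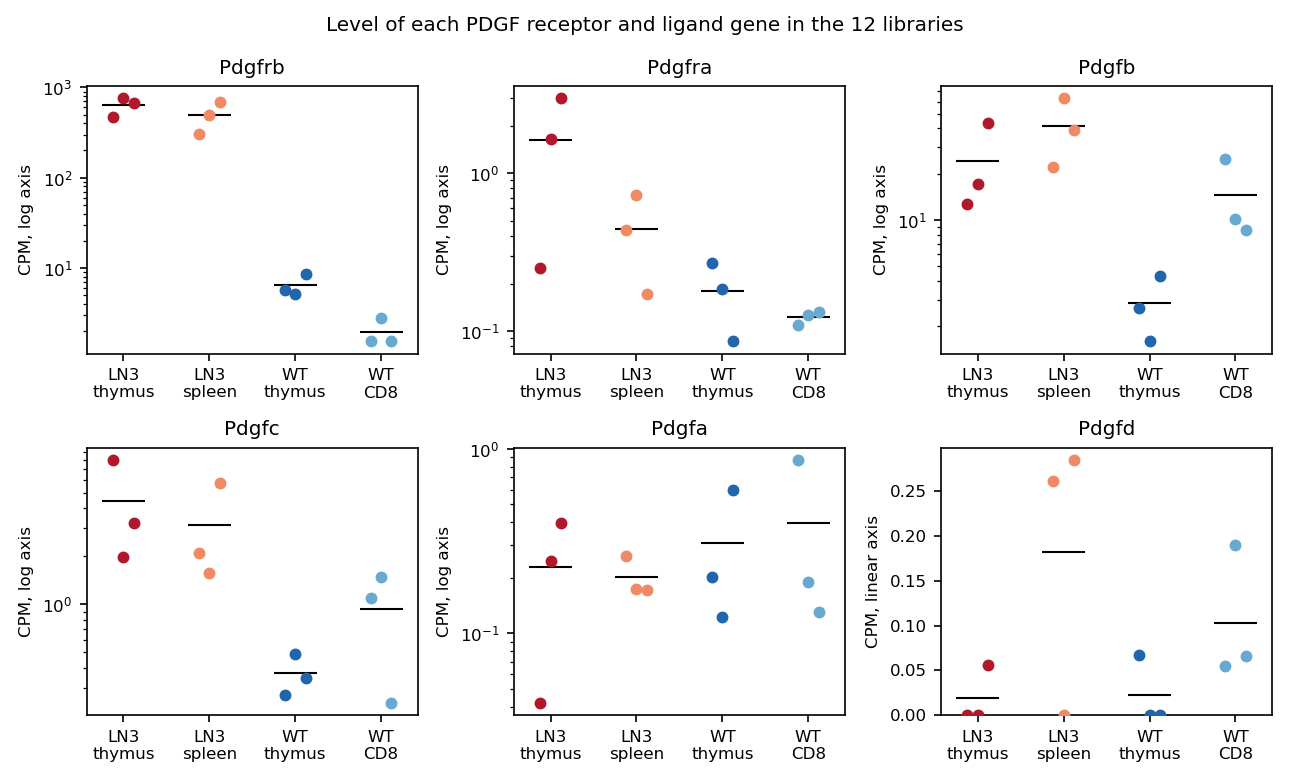
TMM-scaled CPM of the 6 genes in each library, 3 points per group from library 1 to 3 (left to right), with the group mean as a line. WT thymus stands for WT thymocytes and WT CD8 for spleen CD8 cells; the axis is logarithmic except for Pdgfd. Pdgfrb lies at 302 CPM or more in all 6 LN3 libraries and at 8.52 or less in all WT libraries.

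The direction of these 2 comparisons did not depend on which control was used. LN3 spleen exceeded WT thymocytes by 6.26 ± 0.44 (SE) on the log2 scale for Pdgfrb (edgeR adjusted p 6.59e-06), where 19.8% of all genes were called. LN3 thymus exceeded WT CD8 cells by 8.33 ± 0.48 (SE) (edgeR adjusted p 4.73e-07), where 28% were called. These comparisons share their libraries with the first pair, so they are other readings of the same values. The choice of scaling moved the share of called genes that were higher: 53.8% in the thymus and 58.0% in the spleen with TMM, but 38.2 and 40.0% with library totals and 41.2 and 41.7% with upper-quartile factors. Against TMM, library totals moved the median log2 difference of all genes by -0.20 in the thymus and -0.40 in the spleen. Pdgfrb stayed between 6.42 and 6.88 in the thymus and between 7.56 and 8.31 in the spleen over 21 alternatives each.

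Between the control populations, Pdgfrb was lower in the WT CD8 cells, which were enriched, than in the unselected WT thymocytes. It fell by 1.71 ± 0.37 (SE) on the log2 scale from WT thymocytes to WT CD8 cells, with an edgeR adjusted p of 0.00842 and no overlap between the groups. In this comparison 15.7% of all genes were called. With limma-voom, 1 of 21 alternatives, the value was -1.72 with an adjusted p of 0.0532. Of 6 fibroblast markers tested (read below), edgeR called 1 lower and 0 higher between these controls, with a median log2 difference of -1.77. The part of such cells, and of cell maturity, in the fall of Pdgfrb was not tested.

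Pdgfrb is a standard marker of fibroblasts and mural cells (pericytes and smooth muscle of vessel walls), so their other markers were read in the same libraries. All 10 mural markers were low: they summed to 8.73 to 15.6 CPM in LN3 thymus, 10.9 to 18.2 in LN3 spleen, 9.94 to 19.3 in WT thymocytes and 7.38 to 20.2 in WT CD8 cells. These ranges overlapped throughout. Mcam was the highest of them, at 8.40 CPM on average in LN3 thymus, 10.4 in LN3 spleen, 8.15 in WT thymocytes and 4.42 in WT CD8 cells. Of the 6 mural markers tested, 0 were called in the thymus (median log2 difference -0.51). In the spleen (median 0.87) 0 were called higher and 1 lower (Kcnj8, log2 difference -3.52, edgeR adjusted p 0.0211). Myh11 had 1.78 there (edgeR adjusted p 0.0877). The pericyte genes Rgs5 and Cspg4 were at 0.223 and 0.359 CPM on average in LN3 thymus and at 0.0484 and 0.646 in LN3 spleen, and Cspg4 had 0 counts in WT CD8 cells. The 9 endothelial markers summed to 3.15 to 5.91 CPM in LN3 thymus and 4.54 to 16.9 in WT thymocytes, and to 9.28 to 36.9 in LN3 spleen and 8.23 to 34.3 in WT CD8 cells. Of 7 tested, 1 was called lower in the thymus and 1 higher in the spleen (Cldn5, log2 difference 5.35, edgeR adjusted p 0.0214).

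Fibroblast markers, 12 in number, summed to 92.2 to 253 CPM in LN3 thymus and 131 to 377 in LN3 spleen, against 8.34 to 31.2 in WT thymocytes and 3.77 to 6.20 in WT CD8 cells. Fbln1 and Col1a2 made up most of the LN3 sums. Fbln1, which encodes the matrix protein fibulin 1, had 76.5, 115 and 128 CPM in LN3 thymus libraries 1 to 3 and 3.65, 4.29 and 9.81 in WT thymocytes. It was called higher in the thymus (log2 difference 4.18, edgeR adjusted p 5.36e-04) and in the spleen (6.18, edgeR adjusted p 2.80e-05). Col1a2, a chain of type I collagen, had 1.22, 249 and 143 CPM in LN3 spleen libraries 1 to 3, against 0.546, 0.506 and 0.613 in WT CD8 cells. In the same LN3 spleen libraries Fbln1 had 126, 125 and 61.6 CPM. Library 1, low in Col1a2, was thus not low in Fbln1. Its Pdgfrb, at 302 CPM, was the lowest of the LN3 spleen libraries (489 and 690 CPM in libraries 2 and 3). The edgeR adjusted p of Col1a2 was 0.0859 in the thymus and 0.00701 in the spleen.

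The other 10 fibroblast markers were each at or below 8.41 CPM on average in every group. Col1a1, the other chain of type I collagen, averaged 8.14 CPM in LN3 thymus and 2.22 in LN3 spleen. Col3a1 and Dcn, for type III collagen and decorin, averaged 0.134 and 0.0866 CPM in LN3 spleen (WT CD8 cells had 0.401 and 0.366), but 8.41 and 3.83 in LN3 thymus and 3.26 and 1.04 in WT thymocytes. Pdpn had 0 counts in LN3 spleen and Dpt 0 counts in WT CD8 cells. Of the 6 fibroblast markers tested, 1 was called higher in the thymus (median log2 difference 1.62) and 2 in the spleen (0.48), and 0 lower. In LN3 thymus against WT CD8 cells, where 28% of all genes were called, 5 of 6 were called higher. None of Col1a1, Col3a1 and Dcn was called in the thymus or the spleen. They were named after their values were seen. In LN3 thymus Pdgfrb, Col1a1 and Col3a1 were lowest in library 1 and highest in library 2. Fbln1, Col1a2 and Dcn had their highest level there in library 3. The part of fibroblasts in the level of Pdgfrb was not tested beyond these values.

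**Figure D2:**
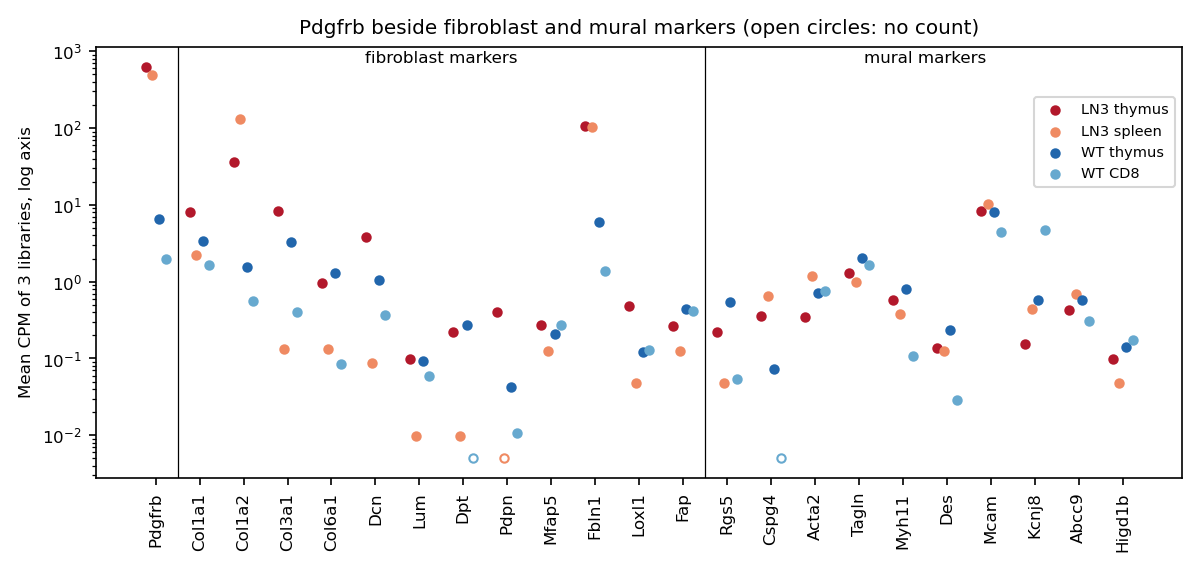
Mean CPM of 3 libraries (logarithmic axis) for Pdgfrb, 12 fibroblast markers and 10 mural markers, 1 colour per group; an open circle at the bottom stands for no count in the group. Among these markers Fbln1 and Col1a2 have the highest means in LN3 cells, below that of Pdgfrb; Rgs5 and Des are below 1 CPM in all groups.

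Pdgfra, the receptor chain for PDGF-AA and PDGF-CC, was scarce throughout. LN3 thymus libraries 1, 2 and 3 had 6, 20 and 106 counts (0.252, 1.65 and 2.98 CPM), and WT thymocytes had 4, 3 and 1 (0.270, 0.184 and 0.0860 CPM). The first LN3 thymus library lay within the range of the controls, so the groups overlapped. Pdgfra was called higher in LN3 thymus, by 3.12 ± 0.86 (SE) on the log2 scale with an edgeR adjusted p of 0.0342, but 9 of 20 alternatives lost the call. Without LN3 thymus library 3 the difference was 2.28 with an adjusted p of 0.163, and without library 2 the adjusted p was 0.0697. It was 0.0873, 0.0964 and 0.0804 without WT thymocyte library 1, 2 or 3.

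In LN3 spleen Pdgfra had 5, 25 and 3 counts (0.436, 0.724 and 0.171 CPM), against 2, 4 and 6 (0.109, 0.126 and 0.131 CPM) in WT CD8 cells. Though these CPM did not overlap, the log2 difference of 1.85 ± 0.84 (SE) did not pass the test (edgeR adjusted p 0.111). It passed in 1 of 20 alternatives, without LN3 thymus library 1 (adjusted p 0.0451), a library outside the comparison. Pdgfra also marks fibroblasts. Dcn, another fibroblast gene, had 0.336, 2.98 and 8.17 CPM in LN3 thymus libraries 1 to 3, so its lowest and highest libraries were those of Pdgfra. Fbln1 and Col1a2 had the same lowest and highest libraries. Col1a1 and Col3a1 were also lowest in library 1, but highest in library 2 (9.93 and 12.6 CPM, against 8.64 and 10.8 in library 3). In the spleen libraries Dcn had 0, 0.203 and 0.0570 CPM. The part of such cells in Pdgfra was not tested.

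The ligands were compared next. Pdgfb, which encodes the chain of PDGF-BB, was the most abundant ligand transcript per length in all 4 groups. LN3 thymus libraries 1 to 3 had 12.8, 17.4 and 43.4 CPM and WT thymocytes 2.63, 1.60 and 4.30. All LN3 thymus libraries were above all WT thymocyte libraries. Pdgfb was higher by 3.12 ± 0.62 (SE) on the log2 scale, 8.69-fold, with an edgeR adjusted p of 0.00684, and it was called in all 21 alternatives.

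In the spleen the picture for Pdgfb was less clear. LN3 spleen libraries had 22.4, 63.2 and 39.2 CPM and WT CD8 cells 25.4, 10.1 and 8.58. The groups overlapped through WT CD8 library 1, which was above LN3 spleen library 1. The log2 difference was 1.51 ± 0.57 (SE), with an edgeR adjusted p of 0.0617 that missed the threshold; 5 of 21 alternatives called it, among them DESeq2 (adjusted p 0.0326). Without WT CD8 library 1 the difference was 2.17 with an edgeR adjusted p of 0.0305, and the adjusted p was 0.0419 without LN3 spleen library 1 and 0.0421 without LN3 thymus library 3.

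Platelets carry Pdgfb, and their markers were read beside it. All 8 platelet and megakaryocyte markers (such as Pf4 and Ppbp) had counts in WT CD8 cells, and summed to 76.7, 18.3 and 19.4 CPM in libraries 1, 2 and 3. The library with the highest platelet sum was the one with the highest Pdgfb of that group. In LN3 spleen the sums were 33.2, 25.6 and 23.1 CPM, and its library with the highest Pdgfb, the second, was not the one with the highest sum. LN3 thymus had 6.20 to 9.91 CPM and WT thymocytes 6.89 to 8.09, with overlapping ranges. The part of platelets in the level of Pdgfb was not tested.

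The WT CD8 libraries had more Pdgfb than those of WT thymocytes, by 2.37 ± 0.61 (SE) on the log2 scale (edgeR adjusted p 0.0189), with no overlap. In this comparison, where 15.7% of all genes were called, 4 of the 8 platelet and megakaryocyte markers were also called higher (median log2 difference 3.02). The part of platelets in Pdgfb was not tested. The Pdgfb call was lost in 5 of 21 alternatives. The value was 1.71 with an adjusted p of 0.0950 without WT CD8 library 1, and the adjusted p was 0.0732 without WT thymocyte library 1 and 0.0696 without WT thymocyte library 2. LN3 thymus exceeded WT CD8 cells by only 0.75 ± 0.56 (SE) for Pdgfb, which did not pass (edgeR adjusted p 0.359). LN3 spleen exceeded WT thymocytes by 3.88 ± 0.64 (SE) for Pdgfb (edgeR adjusted p 0.00196). There 4 of the 8 platelet markers were also called higher, where 19.8% of all genes were called.

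Pdgfc, whose product PDGF-CC needs proteolytic release, was a low transcript that was higher in LN3 thymus. It had 8.06, 1.99 and 3.24 CPM in LN3 thymus libraries 1 to 3 and 0.270, 0.491 and 0.344 in WT thymocytes. The groups did not overlap, although library 1 was well above the other LN3 thymus libraries. The log2 difference was 3.57 ± 0.82 (SE), 11.8-fold, with an edgeR adjusted p of 0.0149. It was 2.83 with an adjusted p of 0.0503 without LN3 thymus library 1, and 3.39 with an adjusted p of 0.0744 without WT thymocyte library 1.

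In LN3 spleen Pdgfc had 2.09, 1.56 and 5.75 CPM, against 1.09, 1.49 and 0.241 in WT CD8 cells. The lowest LN3 library was only just above the highest control library. The difference of 1.75 ± 0.74 (SE) on the log2 scale did not pass with edgeR (adjusted p 0.0879) and passed with DESeq2 (adjusted p 0.0437). Pdgfc was higher in LN3 spleen than in WT thymocytes (3.06 ± 0.82 SE, edgeR adjusted p 0.0219) and in LN3 thymus than in WT CD8 cells (2.25 ± 0.74 SE, edgeR adjusted p 0.0387), but these calls were lost in 5 and 7 of 21 alternatives. In the first, the adjusted p was 0.0968, 0.0859 and 0.0546 without LN3 spleen library 3, WT thymocyte library 1 or WT thymocyte library 2. In the second, it was 0.167, 0.0911 and 0.110 without LN3 thymus library 1, WT CD8 library 1 or WT CD8 library 3.

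Pdgfa and Pdgfd, for the chains of PDGF-AA and PDGF-DD, were close to the limit of detection. Pdgfa had 1, 3 and 14 counts in LN3 thymus, 3, 6 and 3 in LN3 spleen, 3, 2 and 7 in WT thymocytes and 16, 6 and 6 in WT CD8 cells. Each group spanned much of the same range. Pdgfd had 0, 0 and 2 counts in LN3 thymus, 3, 0 and 5 in LN3 spleen, 1, 0 and 0 in WT thymocytes and 1, 6 and 3 in WT CD8 cells. A floor of 3 counts corresponded to 0.0657 to 0.262 CPM, depending on the library, so differences in these 2 ligands were not detectable at this depth.

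Levels of different genes were set side by side per kilobase of the longest coding transcript, 2060 bases for Pdgfa to 6834 for Pdgfra. In LN3 thymus Pdgfrb had 117 ± 27.1 CPM per kilobase (SD, n = 3), above 97.9% of the tested genes with a length. Pdgfb had 8.32 ± 5.61 and Pdgfc 1.26 ± 0.912 CPM per kilobase, with no overlap between the 3 genes, and the remaining members were at 0.239 or less on average. LN3 spleen showed the same order for these 3, with 91.0 ± 35.7 for Pdgfrb, 14.1 ± 6.96 for Pdgfb and 0.891 ± 0.648 for Pdgfc (CPM per kilobase, SD, n = 3).

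In normal cells the order was less distinct or different. In WT thymocytes Pdgfrb had 1.19 ± 0.335 and Pdgfb 0.966 ± 0.464 CPM per kilobase (SD, n = 3), and these neighbours overlapped. In WT CD8 cells Pdgfb came first with 4.98 ± 3.15, and Pdgfrb followed with 0.361 ± 0.132, without overlap. Pdgfrb stood above 38.7% of tested genes in WT thymocytes and 16.8% in WT CD8 cells, against 96.6% in LN3 spleen. Pdgfrb and Pdgfc overlapped in WT CD8 cells, where Pdgfc had 0.267 ± 0.181.

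The 2 sites of leukaemia were compared directly. Their libraries share T-ALL numbers in the titles but were taken as unpaired. In LN3 spleen against LN3 thymus 0.723% of all genes were called, and none of the 4 tested PDGF genes was among them. The log2 difference was -0.36 for Pdgfrb (95% interval -1.15 to 0.44, from 8 residual degrees of freedom), 0.76 for Pdgfb (-0.54 to 2.06) and -0.51 for Pdgfc (-2.14 to 1.13). For Pdgfra it was -1.82 (-3.57 to -0.08), with an unadjusted p of 0.0316 and an edgeR adjusted p of 0.478. The LN3 groups overlapped for all 4 genes. DESeq2 called 652 genes in this comparison and limma-voom 24, against 151 with edgeR, and neither called any of these 4.

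Whether the LN3 effect differed between the organs was tested as an interaction, the spleen difference minus the thymus difference. The controls of the organs also differ in cell type and enrichment, so organ and control cannot be told apart in this contrast. It was called for 4.19% of all genes and for none of the 4 by edgeR, DESeq2 or limma-voom, while 1 of them, Pdgfrb, had an unadjusted p below 0.05 (0.0192). Pdgfrb had the value 1.35 ± 0.51 (SE) (edgeR adjusted p 0.176) and Pdgfb -1.61 ± 0.81 (SE) (edgeR adjusted p 0.331). Pdgfc had -1.82 ± 1.07 (SE) (edgeR adjusted p 0.406) and Pdgfra -1.27 ± 1.24 (SE) (edgeR adjusted p 0.628). The calls of Pdgfra, Pdgfb and Pdgfc in the thymus and not in the spleen are therefore not shown to differ between the 2 comparisons.

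**Figure D3:**
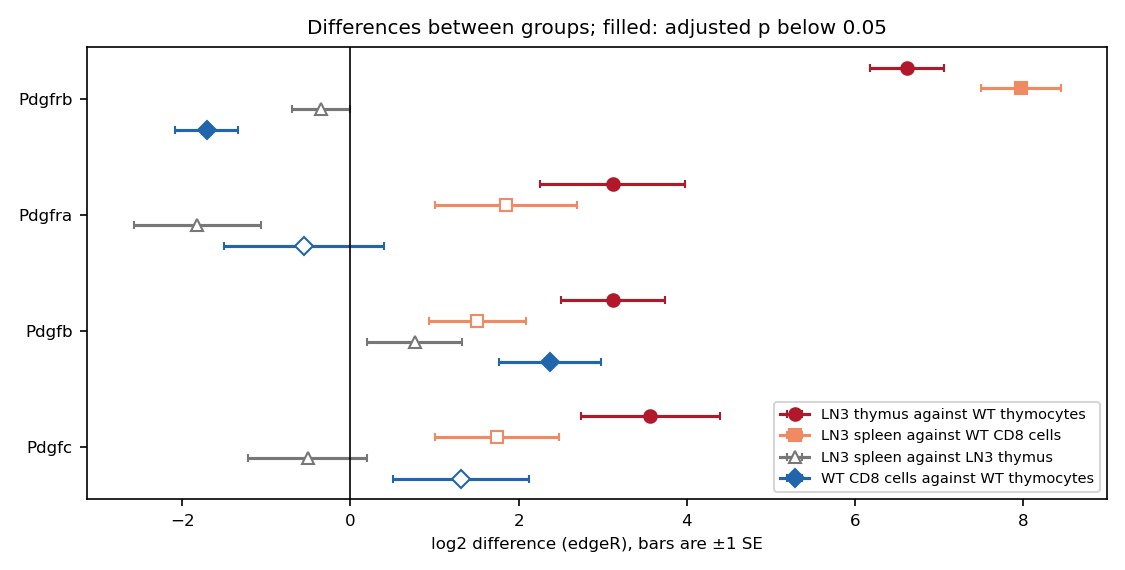
Log2 differences with ±1 SE bars of the 4 tested genes in 4 comparisons (marker shape and colour); filled markers passed an adjusted p of 0.05. Pdgfrb is at 6.62 and 7.97 in the comparisons of LN3 with control cells, and the triangles for LN3 spleen against LN3 thymus are all open.

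Genes with the most similar profiles were named for each tested member by Pearson's r of log2 CPM over the 12 libraries, as a description. The points share groups and libraries, so r mostly follows group means. For Pdgfrb these were Il9r (r = 0.993), a cytokine receptor gene, Heyl (0.992), a Notch-responsive repressor gene, Espnl (0.991), Kdelc1 (0.991) and AC173344.1 (0.990). The mean level of Heyl was 59.0 CPM in LN3 thymus and 36.9 in LN3 spleen, against 0.655 in WT thymocytes and 0.237 in WT CD8 cells.

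For Pdgfb they were Arhgef12 (r = 0.958), Arsg, Atp2b4, Mcur1 and Spry2 (0.933), an inhibitor of receptor tyrosine kinase signalling that is itself ERK-responsive. For Pdgfc they were Alcam (0.949), a cell adhesion gene, Pbx3, Lrp4, Fzd7 and Ncald (0.910), and for Pdgfra, on few counts, Slmapos2 (0.929), Acoxl, Mboat4, Gm47547 and Tat (0.915). No gene was shared between the 4 lists. Among the members themselves r was 0.634 for Pdgfrb with Pdgfb and 0.780 for Pdgfrb with Pdgfc, and after removal of group means 0.354 and 0.197.

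The genes closest to the PDGF receptors in sequence family are the other class III receptor tyrosine kinases (Kit, Csf1r, Flt3) and the related VEGF receptors. Of 5 that were measured, 0 rose and 1 fell in the thymus, where 11.3% of all genes were called. In the spleen, where 30.9% of all genes were called, 0 of the 5 were called by edgeR. At an unadjusted p below 0.05 there were 2 lower in each comparison and 0 higher; DESeq2 called 2 lower in each and limma-voom 1 in the thymus and 0 in the spleen. Their median log2 difference was -1.49 in the thymus and -1.04 in the spleen, against -0.04 and -0.11 over all genes tested. Kit, the stem cell factor receptor, fell by 2.06 in LN3 thymus on the log2 scale (edgeR adjusted p 0.0124), from 12.2 ± 4.26 to 2.92 ± 0.478 CPM (SD, n = 3). Flt3 had -2.01 in the thymus and -1.04 in the spleen (edgeR adjusted p 0.108 and 0.269). Csf1r, the receptor for macrophage colony-stimulating factor, had -1.97 in the spleen (edgeR adjusted p 0.0708), where myeloid markers summed to 227 to 739 CPM in LN3 spleen and 206 to 2761 in WT CD8 cells. Flt1 and Kdr did not pass either, and Flt4 was too low to test.

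The ligands of these relatives gave 0 calls of 7 measured in the thymus (11.3% of all genes were called), and 1 higher and 2 lower in the spleen (30.9%). In the thymus 3 were lower at an unadjusted p below 0.05, DESeq2 called 3 lower and limma-voom 1. Csf1 and Flt3l, the ligands of Csf1r and Flt3, fell by 2.12 and 2.45 on the log2 scale in LN3 spleen (edgeR adjusted p 0.0397 and 0.00231). Flt3l had 10.6 ± 5.90 CPM in LN3 spleen and 57.8 ± 15.6 in WT CD8 cells (SD, n = 3). Il34, a second ligand of Csf1r, was called higher in the spleen (edgeR adjusted p 0.0177) with 5, 33 and 0 counts in LN3 spleen libraries 1 to 3 against 0, 1 and 1 in WT CD8 libraries. The summed level was 28.6 times higher, with a 95% counting interval of 7.38 to 245, and 1 of the 3 LN3 spleen libraries had no count. The call of Il34 was lost in 5 of 20 alternatives, among them those without LN3 spleen library 2 (adjusted p 0.125) and without WT CD8 library 1 or 3 (0.0579 and 0.0629), and limma-voom called 0 ligands higher. That of Csf1 was lost in 8 of 21, with an adjusted p of up to 0.176 (without WT CD8 library 1), and that of Flt3l in 0. The remaining ligands measured, Kitl, Vegfa, Vegfb and Vegfd, were not called in either comparison.

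Genes that release or present PDGF ligands were described next: 8 of 10 listed were measured, and Pcsk5 and Pcsk6 were too low. In the thymus 2 rose and 1 fell, where 11.3% of all genes were called, and in the spleen 2 rose and 2 fell, where 30.9% were called. The median log2 difference was 0.45 in the thymus and -0.90 in the spleen. Nrp1, which encodes neuropilin 1, a co-receptor of PDGF and VEGF ligands, was called higher in both. It had 103, 141 and 87.1 CPM in LN3 thymus against 47.6, 39.3 and 33.7 in WT thymocytes, and 82.6, 68.8 and 52.3 in LN3 spleen against 15.03, 27.1 and 6.11 in WT CD8 cells. Neither pair of groups overlapped, with log2 differences of 1.46 (edgeR adjusted p 0.0428) and 2.08 (0.00359).

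Lrp1, the lipoprotein receptor that modulates Pdgfrb, rose by 2.57 in LN3 thymus (edgeR adjusted p 0.0352). In the spleen it had -0.98 (edgeR adjusted p 0.276). Nrp2 fell by 3.02 in the spleen (edgeR adjusted p 0.00167). Sparc, a matrix protein that binds PDGF, had 12.9, 6.83 and 1.14 CPM in LN3 spleen against 0.765, 0.823 and 0.591 in WT CD8 cells, and was called higher by 3.25 (edgeR adjusted p 0.0328). A pair of protease genes fell: Plat, for tissue plasminogen activator, an activator of PDGF-CC, fell by 1.89 in the spleen (edgeR adjusted p 0.0151) and Pcsk7, a proprotein convertase, fell by 0.82 in the thymus (edgeR adjusted p 0.0473). In the spleen the calls of Nrp1 and Nrp2 held in all 21 alternatives. Those of Nrp1 and Lrp1 in the thymus were each lost in 10, whichever library of the groups compared was left out, with adjusted p up to 0.137 and 0.140. Sparc lost its call in 9 (adjusted p up to 0.102, without LN3 spleen library 1), Plat in 2 (up to 0.0629) and Pcsk7 in 15 (up to 0.155). Plat and Pcsk7 were named after their values were seen, as were the genes added below to make a short count complete.

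Of the 34 kinases, adaptors and effectors that act next to the receptor, all were measured. In the thymus 0 rose and 1 fell, where 11.3% of all genes were called, with a median log2 difference of -0.15. At an unadjusted p below 0.05, 1 was higher and 3 were lower, and DESeq2 and limma-voom also called 0 higher. The gene that fell was Pik3cb, a catalytic subunit of phosphoinositide 3-kinase, which fell by 3.33 (edgeR adjusted p 0.00119) from 13.2 ± 1.94 to 1.30 ± 0.622 CPM (SD, n = 3). In the spleen 5 rose and 1 fell, where 30.9% of all genes were called, with a median of 0.12. The calls of the lists that follow are to be read against the same shares. Nck2, an adaptor that binds phosphorylated receptors, had 136, 149 and 149 CPM in LN3 spleen against 33.8, 24.2 and 32.7 in WT CD8 cells, with no overlap, and rose by 2.26 (edgeR adjusted p 7.29e-05). Among the others that rose, Pik3r2 had a log2 difference of 1.36, and Yes1, a SRC family kinase, fell by 1.84 (edgeR adjusted p 0.0162). The calls of Pik3cb, Nck2 and Stat5a held in all 21 alternatives. Those of Pik3r2 and Yes1 were each lost in 1 (for Yes1, without LN3 spleen library 3, adjusted p 0.0703), and that of Akt1, which also rose, in 9, with an adjusted p of up to 0.0987.

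Genes that switch receptors off were split in direction. Of 12 measured, 3 rose and 2 fell in the thymus and 2 rose and 1 fell in the spleen, with medians of 0.00 and -0.24. Inppl1, which encodes the lipid phosphatase SHIP2, rose by 3.46 in LN3 thymus (edgeR adjusted p 0.00162), from 3.30 ± 1.23 to 36.3 ± 9.70 CPM (SD, n = 3). Cblb, a ubiquitin ligase, rose by 1.43 there (edgeR adjusted p 0.00131), while Cbl and Inpp5d, for the related ligase and for SHIP1, fell by 1.11 and 1.43 (edgeR adjusted p 0.0176 and 0.0341). Acp1, a low molecular weight tyrosine phosphatase, rose in both, by 1.23 and 1.85 (edgeR adjusted p 0.0147 and 6.36e-04). Sh3kbp1, an adaptor of receptor internalisation, rose by 1.26 in the spleen (edgeR adjusted p 0.0306). Ptprj, a receptor-type phosphatase that acts on PDGF receptors, fell by 1.76 in the spleen (edgeR adjusted p 0.0379). The calls of Inppl1 and Cblb in the thymus and of Acp1 in the spleen held in all 21 alternatives. In the thymus Acp1, Cbl and Inpp5d lost theirs in 3, 4 and 6 (adjusted p up to 0.0590, 0.0790 and 0.122), and in the spleen Sh3kbp1 and Ptprj in 6 and 12 (up to 0.207 and 0.182).

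Immediate-early and growth-response genes, a known readout of PDGF in fibroblasts, were also mixed. Of 18 listed, 14 were measured: 2 rose and 1 fell in the thymus, and 3 rose and 3 fell in the spleen, with medians of -0.14 and -0.52. Myc rose by 2.21 in the thymus (edgeR adjusted p 6.82e-04) and by 2.08 in the spleen (3.68e-04). Its level was 305 ± 85.7 CPM in LN3 thymus and 66.2 ± 23.7 in WT thymocytes (SD, n = 3). Jun rose by 2.64 and 1.91 (edgeR adjusted p 0.00997 and 0.0188). Egr2 fell by 3.17 and 1.98 (edgeR adjusted p 0.00387 and 0.0168), and in the spleen Fosl2 and Fos fell by 2.57 and 2.02 (0.00409 and 0.0487) while Egr1 rose by 0.89 (0.0281). In the thymus Fos and Egr1 had 0.10 and -0.54 and were not called. The calls of Myc in both comparisons, Egr2 in the thymus and Fosl2 in the spleen held in all 21 alternatives. Jun lost its call in 1 in the thymus (adjusted p 0.0563 without WT thymocyte library 1) and in 4 in the spleen (up to 0.0907, without LN3 spleen library 1). In the spleen Egr2, Egr1 and Fos lost theirs in 3, 8 and 12 (up to 0.0745, 0.0929 and 0.238).

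ERK feedback genes are induced by the ERK cascade, and the Dusp, Spry and Spred genes among them dampen it. Etv4 and Etv5 stand in the list as induced ETS factor genes. All were measured. Of these 12, 2 rose and 1 fell in the thymus, and 4 rose and 0 fell in the spleen (also 0 lower at an unadjusted p below 0.05 and with DESeq2 or limma-voom), with medians of 0.33 and 0.92. Etv5, an ETS factor, had 33.9, 102 and 155 CPM in LN3 thymus against 11.2, 11.7 and 19.2 in WT thymocytes, and 106, 167 and 275 in LN3 spleen against 8.53, 8.29 and 3.33 in WT CD8 cells. Neither pair overlapped, and Etv5 rose by 2.79 and 4.77 (edgeR adjusted p 0.00678 and 1.66e-04). Spry2 rose by 2.31 in the thymus (edgeR adjusted p 0.0164) and had 0.83 in the spleen (0.225). Dusp6, a phosphatase of ERK, fell by 1.71 in the thymus (edgeR adjusted p 0.0447).

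Dusp4, another such phosphatase, had 52.1, 41.2 and 63.9 CPM in LN3 spleen against 2.40, 3.73 and 2.08 in WT CD8 cells. It rose by 4.25 in the spleen (edgeR adjusted p 3.64e-05) and had 0.80 in the thymus (0.213), where WT thymocytes already had 28.7 ± 14.7 CPM (SD, n = 3). Spry1 and Spred2 rose by 2.61 and 1.002 in the spleen (edgeR adjusted p 0.00112 and 0.0134). The calls of Etv5 in both comparisons and of Dusp4 and Spry1 in the spleen held in all 21 alternatives, while Spry2, Dusp6 and Spred2 lost theirs in 2, 12 and 4 (adjusted p up to 0.0776, 0.142 and 0.0905). These genes answer to many receptors, and their part in PDGF signalling was not tested.

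**Figure D4:**
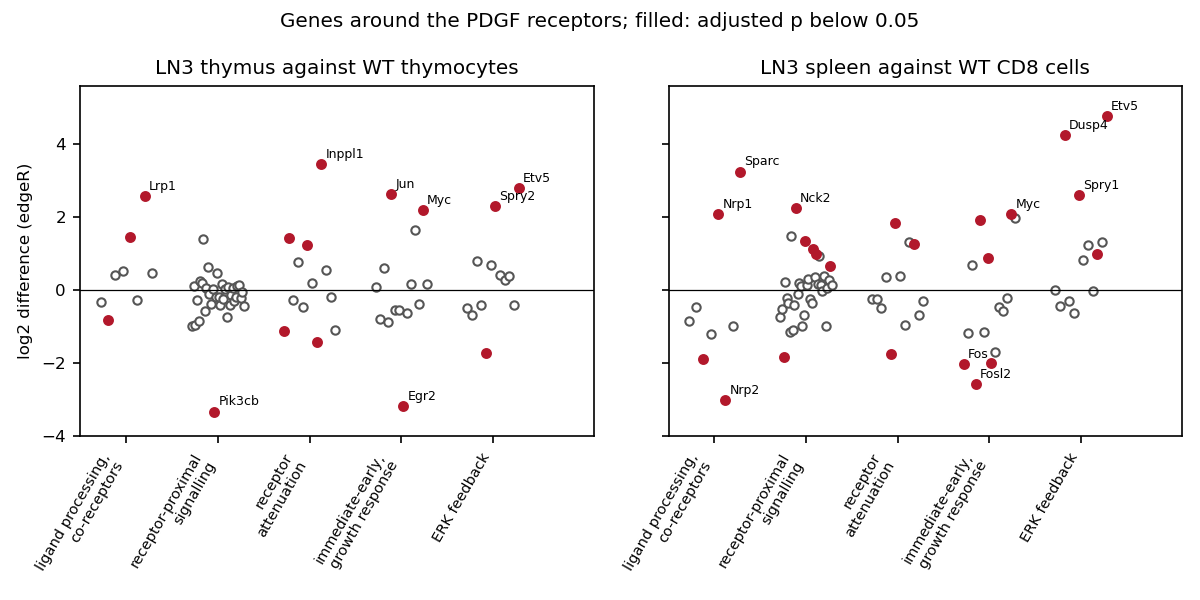
Log2 differences of the measured genes in 5 lists around the PDGF receptors, LN3 thymus against WT thymocytes (left) and LN3 spleen against WT CD8 cells (right); 1 point per gene, filled where the adjusted p was below 0.05. Receptor-proximal genes lie close to 0, with Pik3cb at -3.33 (left) and Nck2 at 2.26 (right), and Etv5 is at 2.79 and 4.77.

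The neighbourhood of Pdgfrb did not change as a block. Csf1r, 15536 bases after its end, had log2 differences of 0.49 in the thymus and -1.97 in the spleen, and neither was called (edgeR adjusted p 0.754 and 0.0708). Cdx1, an intestinal homeobox gene 8950 bases before its start, had 5, 0, 6 and 0 counts in LN3 thymus, LN3 spleen, WT thymocytes and WT CD8 cells. Of 9 neighbours measured, 0 rose and 1 fell in the thymus (Camk2a, by 3.44, edgeR adjusted p 2.98e-04), and 2 rose and 0 fell in the spleen (Arsi and Tcof1, by 6.43 and 1.63, edgeR adjusted p 0.00209 and 0.00140). At an unadjusted p below 0.05, 0 neighbours were higher in the thymus and 1 was lower in the spleen (Csf1r, unadjusted p 0.0253). DESeq2 and limma-voom called 0 higher in the thymus; in the spleen DESeq2 called 1 lower (Csf1r) and limma-voom 0. The calls of Camk2a, Arsi and Tcof1 held in all 21 alternatives. Arsi, a sulphatase gene, varied between libraries, with 7.06, 153 and 93.7 CPM in LN3 spleen against 1.42, 1.46 and 0.175 in WT CD8 cells. Next to Pdgfra, Kit lies 376700 bases after its end and fell in LN3 thymus as given above, and Gsx2, on the other side, had 0 counts in all groups.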

How the data were processed

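The table of estimated counts per gene was made and deposited by the authors; per the submitters' processing notes, kallisto 0.46.1, FastQC, DESeq2 and genome build GRCm38 were used. For the annotation release and the strand setting, the sources used here give nothing. All deposited estimated counts (100%) were whole numbers, and they were rounded as a safeguard. Variance-stabilized log2 values, deposited by the authors in a separate table, served as an alternative.

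The 12 libraries were fitted together in edgeR 4.0.16 (R 4.3.3): TMM scaling, filterByExpr, 4 group means, robust quasi-likelihood, 8 residual degrees of freedom, and a common biological coefficient of variation of 0.441. The script was tested on simulated data. CPM are TMM-scaled. Counts of 3 are the floor, and intervals and floors cover counting error only. Fitted fold changes of genes with few counts depend on the prior count. The self-defined choices were the gene lists (processing and co-receptors, proximal signalling, attenuation, immediate-early, ERK feedback, class III and VEGF receptors and ligands, neighbours, cell type markers). The members and lists were chosen with earlier results of these data known. Named genes were all members, relatives, the genes next to a receptor gene and the 5 most similar profiles per tested member. To these came the 2 called genes with the largest change per list and comparison. For the marker lists the rule was the 2 highest markers. Cd3e, Cd4, Col1a1, Col3a1, Dcn, Pdpn, Dpt, Rgs5, Cspg4, Des, Kcnj8, Myh11, Cldn5, Alas2, Pf4 and Ppbp were named outside this rule. Alternatives were library totals, upper-quartile factors, DESeq2 1.42.0, no filter on low counts, limma-voom (limma 3.58.1), the variance-stabilized values, no robust estimation, only the 2 groups compared, a replicate block and leaving out each library. Replicate libraries differed beyond sampling noise in every pair. The values of 1 gene of the proximal signalling list, which stays in the counts of that list, are not reported here.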

Additional observations from a re-analysis of the deposited data

Results flagged for a closer look

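For 5 genes of the pathway, relative and neighbour lists, the LN3 effect in the spleen and that in the thymus differed by the interaction test (edgeR, adjusted over all genes tested). Values are the spleen log2 difference minus the thymus one. Dusp4 had 3.46 (adjusted p 0.00461), with 52.4 ± 11.4 CPM in LN3 spleen, 49.8 ± 13.5 in LN3 thymus, 28.7 ± 14.7 in WT thymocytes and 2.74 ± 0.876 in WT CD8 cells (SD, n = 3), so the controls differed more than the LN3 groups. Nck2 had 1.61 (adjusted p 0.019), with 145 ± 7.69 CPM in LN3 spleen, 176 ± 30.2 in LN3 thymus, 112 ± 26.2 in WT thymocytes and 30.2 ± 5.27 in WT CD8 cells (SD, n = 3). Cblb had -1.68 (adjusted p 0.00796): WT thymocytes stood at 61.2 ± 1.32 CPM (SD, n = 3), below the other groups at 137 to 165 on average. Camk2a, a neighbour of Pdgfrb, had 4.17 (adjusted p 0.00193), and WT thymocytes stood at 39.7 ± 7.82 CPM (SD, n = 3) against 3.53 to 5.84 in the other groups on average. Il34 had 6.83 (adjusted p 0.021) on 2 counts in all WT CD8 libraries and 38 in LN3 spleen, 33 of them in library 2. No PDGF receptor or ligand gene was among the genes that differed. Among the cell type markers, 1 erythroid gene and 1 of the Cd4 and Cd8 genes were also called higher in the interaction.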

How the results depend on the processing

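Over the alternatives, Pdgfrb kept its call and direction in both comparisons of LN3 with control cells, and Pdgfb in the thymus; of 166 values of tested members in those comparisons, 148 kept both, 11 lost the call and 7 gained it. In the thymus, Pdgfra lost it at 2.81 with library totals, 2.44 with limma-voom and 1.84 with the variance-stabilized values (adjusted p 0.0605, 0.164 and 0.103), and ranged from 2.28 to 3.65 with each library left out; Pdgfc ranged from 2.83 to 3.91. In the spleen, Pdgfb was called with DESeq2 (1.52) and limma-voom (1.72) and Pdgfc with DESeq2 (1.79); without 1 library Pdgfb ranged from 1.12 to 2.17, Pdgfc from 0.97 to 2.28 and Pdgfra from 1.23 to 2.22. Genes called, with each library left out, numbered 1203 to 2737 in the thymus, 3999 to 8582 in the spleen, 1871 to 3284 between controls, 1930 to 5818 for LN3 spleen against WT thymocytes, 463 to 880 for the interaction and 0 to 255 for LN3 spleen against LN3 thymus (0 without LN3 thymus library 1). With only the 2 groups compared, 1479 were called in the thymus and 2406 for LN3 spleen against WT thymocytes. LN3 spleen against LN3 thymus gave 43 with library totals, 652 with DESeq2 and 24 with limma-voom, and the interaction 1759 with DESeq2. Uncalled values changed sign with 1 library left out for Sparc, Csf1r and Csf1 in the thymus, which ranged from -0.055 to 1.965, -0.29 to 0.99 and -0.66 to 0.090, and for Pdgfc between LN3 sites (-1.29 to 0.26); Pdgfra between controls turned to 0.44 with the variance-stabilized values. The cause was not tested. Replicate numbers are shared between groups, and LN3 thymus and LN3 spleen share T-ALL numbers in their titles. The labels do not say whether these are pairs. Same-numbered libraries did not deviate together (r of -0.15, -0.53 and -0.04 between LN3 thymus and LN3 spleen), which cannot exclude pairs. The main fit did not treat them as pairs. With a replicate block within the 6 LN3 libraries, 105 genes were called for LN3 spleen against LN3 thymus, and no tested member. With the replicate block over all 12 libraries, 31 genes were called for LN3 spleen against LN3 thymus and 519 for the interaction. In that fit Pdgfra in the thymus was 2.92 (edgeR adjusted p 0.0955) and Pdgfc in LN3 thymus against WT CD8 cells 2.18 (0.0889). No other call of a member changed. Depth limits Pdgfa, Pdgfd and Pdgfra, whose counts were 1 to 16, 0 to 6 and 1 to 106.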
